A study of Mus musculus with 16 samples.

Results

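A set of 9 genes for the control of cell volume and of salt and water movement was followed across the series: the 5 subunit genes of the volume-regulated anion channel (Lrrc8a, Lrrc8b, Lrrc8c, Lrrc8d and Lrrc8e), the chloride carriers Slc12a2 and Slc12a4, the water channel Aqp1 and the kinase gene Wnk1. They were taken by gene symbol from the platform's annotation, with the brightest probe set per gene by the mean over 16 arrays. The 9 genes were read by 10 probe sets, since Wnk1 had 2, and they belonged to 19937 named genes in all. Messenger RNA was measured on 1-channel Affymetrix arrays in macrophages grown from mouse bone marrow. The cells were either wild type (WT) or lacked the transcription factor NFAT5 (knockout, KO), both on a 129sv background. Each genotype was left unstimulated or given LPS, a bacterial cell wall component that activates macrophages, with 4 arrays in each of the 4 groups, numbered 1 to 4 in their titles. No source used here gives the LPS dose, the length of stimulation or the form of the deletion. Nor is it stated if the 4 arrays in each group stand for different mice or for separate cultures, and the p-values reflect only their spread, which may be technical. The number of arrays limits the precision.

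An animal cell that swells or shrinks corrects its volume by moving salt, and water follows. In swollen cells LRRC8 proteins form a channel that lets chloride and small organic osmolytes leave, with LRRC8A as the obligatory subunit and the other LRRC8 proteins as partners that set which solutes pass. The carrier NKCC1, from Slc12a2, brings sodium, potassium and chloride into shrunken cells, KCC1, from Slc12a4, lets potassium and chloride out of swollen ones, and WNK1 controls both carriers through the kinases SPAK and OXSR1. NFAT5 is a transcription factor known for switching on genes of osmolyte accumulation when the surroundings are hypertonic, and in macrophages it is also known to act on genes induced by Toll-like receptors.

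The labelled cell type was checked first. The mean of 8 macrophage markers lay between 12.02 and 12.40 on the log2 scale in every array. The means of 7 erythroid, 6 lymphocyte and 9 neutrophil markers lay between 5.20 and 6.33. Those of 8 stromal markers lay between 6.27 and 7.07, and those of 8 endothelial markers between 6.89 and 7.48. Single genes reached 11.16 in the stromal and 10.92 in the endothelial list, in treated WT arrays. Nfat5, the targeted gene, lay at 8.67 to 9.29 in treated KO and 9.80 to 10.6 in treated WT arrays, which did not overlap (difference -0.98, limma with Benjamini-Hochberg adjusted p = 0.00169). Without LPS it lay at 8.93 to 9.20 in KO and 9.15 to 9.67 in WT arrays, which overlapped (difference -0.36, adjusted p = 0.602). Whether the probe set lies in the deleted stretch is not stated, so it checks the labels only in part. Along the second component of a principal component analysis (7.55% of the variance) the WT LPS array numbered 4 and both KO arrays numbered 4 scored between -31.4 and -18.5, and the other 13 arrays at -7.99 or above. Xist was above the Y-linked Kdm5d in all 8 WT arrays and in the KO arrays numbered 4, and below it in the other 6 KO arrays, so genotype and sex-linked transcripts largely coincided. Genotype differences of the 9 genes, and genotype calls among other transport genes, were therefore also computed under further settings. These were a term for this split, the 10 arrays with Xist above Kdm5d, and leaving out the arrays numbered 4. The KO arrays numbered 4 are the only KO arrays in the second of these, and the first rests on setting them against the other KO arrays. The genotype differences of Nfat5, the markers and the chromosomal neighbours come only from the fit without these settings.

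With LPS, 3 of the 9 genes rose in both genotypes: Lrrc8c, Lrrc8b and Slc12a4. Wnk1 fell in both. Aqp1 passed the test in WT cells by a narrow margin. In WT cells 4 of 9 were called higher and 1 lower at an adjusted p under 0.05 in limma, where 14% of all genes tested were called higher and 16.8% lower. In KO cells 3 of 9 were called higher and 1 lower, against 12% and 12.7% of all genes. The median difference over the 9 genes was 0.23 in WT cells and 0.13 in KO cells, beside 0.06 and 0.01 over all genes. These cultures are bulk samples, in which fewer cells of a type and less RNA per cell cannot be told apart.

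**Figure D1:**
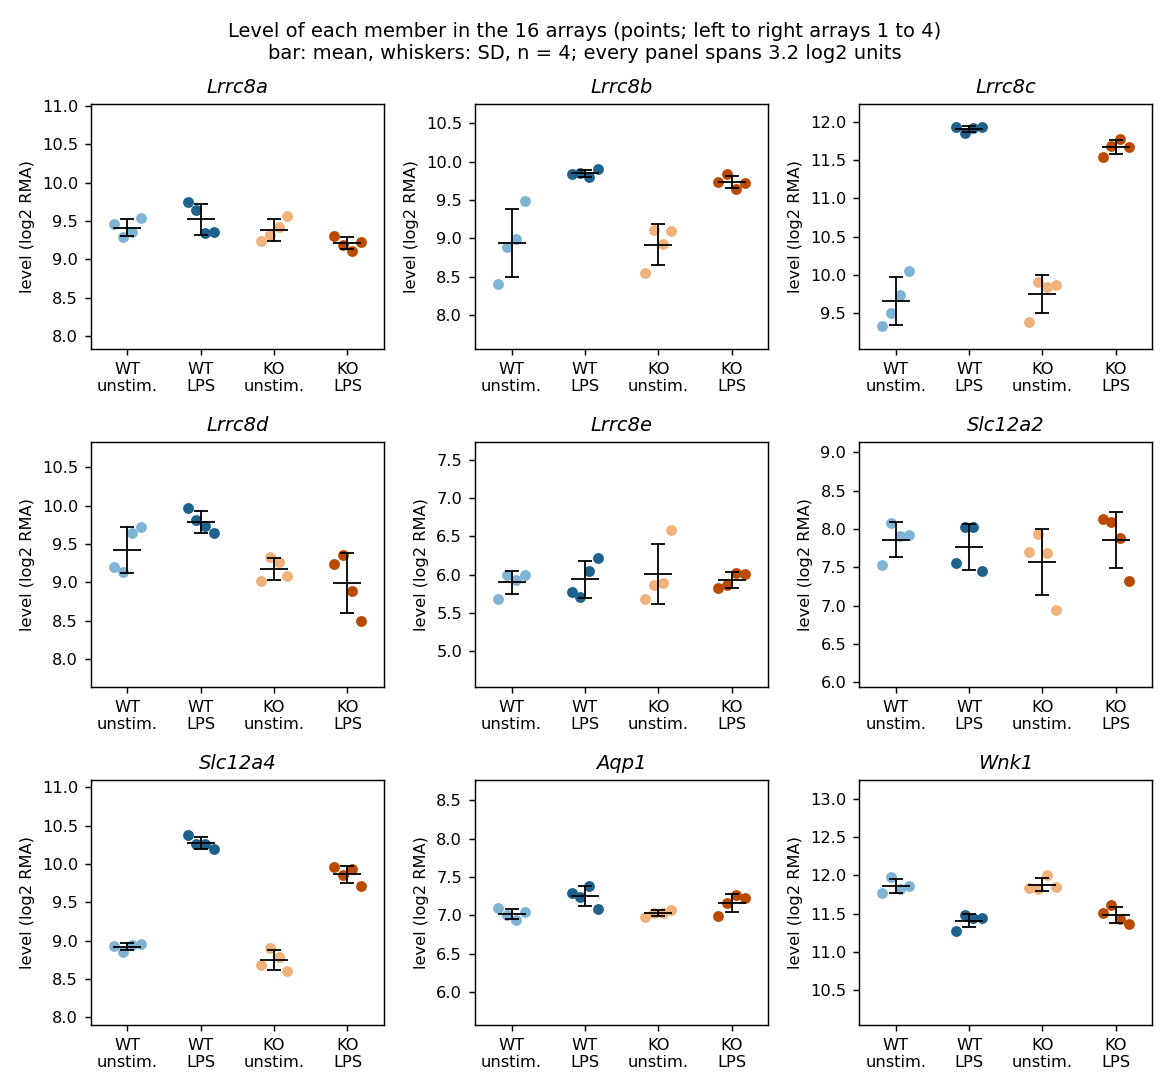
Level of each of the 9 genes in the 16 arrays, as log2 RMA values (y axis) by group (x axis), with every panel spanning 3.2 log2 units. Points are arrays and bars with whiskers are means with SD (n = 4). The LPS points of Lrrc8c, Lrrc8b and Slc12a4 lie above all unstimulated points of the same genotype, and those of Wnk1 lie below them.

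Lrrc8c showed the largest rise of the 9 genes in both genotypes. In unstimulated WT arrays it read 9.34, 9.50, 9.74 and 10.06 on the log2 scale, and with LPS 11.93, 11.85, 11.92 and 11.93. In KO cells it read 9.39, 9.91, 9.84 and 9.88 without LPS and 11.54, 11.69, 11.78 and 11.67 with it. Treated and untreated arrays did not overlap in either genotype, and the treated WT arrays lay within 0.1 of each other. The rise was 2.25 ± 0.136 (SE), or 4.76-fold, in WT cells (limma adjusted p = 3.4e-10) and 1.92 ± 0.136, or 3.78-fold, in KO cells (adjusted p = 3.98e-09). The response in KO minus that in WT was -0.33 ± 0.192 (adjusted p = 0.625). Over the 16 arrays, the genes with the pattern most like that of Lrrc8c among 9495 candidates were Gng12, Clec4e and St3gal3, each with Pearson r = 0.99, a description over arrays that share the LPS response.

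Lrrc8b, which encodes another partner subunit of the channel, also rose with LPS, from a wider spread. Unstimulated WT arrays read 8.41, 8.89, 9.0 and 9.49, and treated ones 9.84, 9.85, 9.80 and 9.91. In KO cells the values were 8.55, 9.11, 8.93 and 9.10 without LPS and 9.74, 9.84, 9.65 and 9.72 with it. The groups of each genotype did not overlap, and in both the SD was smaller with LPS (0.05 and 0.08) than without (0.44 and 0.26). The rise was 0.91 ± 0.166, or 1.88-fold, in WT cells (limma adjusted p = 0.000262) and 0.82 ± 0.166, or 1.76-fold, in KO cells (adjusted p = 0.000928). Over only the 10 arrays that had Xist above Kdm5d the KO rise was 0.62 (adjusted p = 0.345). That fit holds 1 KO array in each treatment, taken to have the same spread as WT arrays. After the group means were removed, Lrrc8b and Lrrc8c still moved together over the 16 arrays (r = 0.90). The genes most like Lrrc8b over the arrays were Mark2, Dusp11 and Wdr74 (r = 0.97 each).

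The other subunit genes were not called for LPS in either genotype. Lrrc8a, the obligatory subunit, read 9.46, 9.29, 9.36 and 9.54 in unstimulated WT arrays and 9.75, 9.64, 9.34 and 9.36 with LPS. The treated and untreated arrays overlapped, and the difference was 0.11 ± 0.105 with a 95% interval of -0.11 to 0.33 (limma adjusted p = 0.49). The difference in KO cells was -0.18 ± 0.105 (adjusted p = 0.289), and -0.26 after quantile normalization (adjusted p = 0.0417). Lrrc8d, a partner subunit that favours organic osmolytes, differed with LPS by 0.37 ± 0.168 in WT cells (interval 0.01 to 0.72, adjusted p = 0.114) and by -0.18 ± 0.168 in KO cells (adjusted p = 0.548). Without the arrays numbered 4, the WT difference was 0.52 (adjusted p = 0.0185). Lrrc8e, the last partner subunit, stayed between 5.68 and 6.58 in all 16 arrays. Its differences in the 4 contrasts ran from -0.08 to 0.11, and its mean of 5.94 was below the median of 7.11 over all genes.

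Lrrc8b, Lrrc8c and Lrrc8d lie side by side on chromosome 5 in the RefSeq order of genes (assembly GRCm38.p6), with only the unmeasured Gm42166 between Lrrc8c and Lrrc8d. Gbp4, a guanylate-binding protein gene of the interferon response and the third gene before Lrrc8b, rose with LPS by 1.65 in WT and 1.67 in KO cells (limma adjusted p = 5.28e-09 and 6.39e-09). The next gene after Lrrc8d, Zfp326, differed by -0.30 and -0.26 (adjusted p = 0.116 and 0.202). Their promoters are shown because Lrrc8b and Lrrc8c rose while Lrrc8d, beside them, did not pass the test; the difference between these genes was not tested. The 250 bases before the annotated start come from RefSeq (GRCm38.p6). Promoters of 8 of the 9 genes were searched, and capitals mark the motif matches found on either strand. The windows are chr5:105415525-105415774 for Lrrc8b, chr5:105519221-105519470 for Lrrc8c and chr5:105699719-105699968 for the first of the Lrrc8d promoters, all on the plus strand.
Lrrc8b: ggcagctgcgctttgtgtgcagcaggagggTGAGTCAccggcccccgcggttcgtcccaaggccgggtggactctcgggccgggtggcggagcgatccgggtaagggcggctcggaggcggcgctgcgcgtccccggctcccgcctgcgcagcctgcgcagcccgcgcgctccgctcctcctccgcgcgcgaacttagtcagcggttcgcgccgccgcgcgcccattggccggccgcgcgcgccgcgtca
Lrrc8c: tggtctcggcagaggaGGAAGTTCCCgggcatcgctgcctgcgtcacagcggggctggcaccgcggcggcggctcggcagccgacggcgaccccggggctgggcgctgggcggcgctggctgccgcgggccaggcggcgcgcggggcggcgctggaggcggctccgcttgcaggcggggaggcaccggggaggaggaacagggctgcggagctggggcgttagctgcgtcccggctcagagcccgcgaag
Lrrc8d: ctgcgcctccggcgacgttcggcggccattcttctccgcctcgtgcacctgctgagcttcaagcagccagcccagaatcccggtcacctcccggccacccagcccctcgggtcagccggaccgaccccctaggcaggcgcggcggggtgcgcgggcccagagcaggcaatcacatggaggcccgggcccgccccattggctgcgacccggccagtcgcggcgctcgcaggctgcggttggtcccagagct

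The motifs searched were the NF-kB consensus, AP-1 as TGANTCA, the interferon regulatory factor (IRF) consensus, the NFAT core GGAAA and the NFAT5 core TGGAAA, which contains the NFAT core. The Lrrc8c window held 1 NF-kB match, read on the minus strand, whose first base lies 234 bases before the start. Such a match was in 7.25% of 32851 promoter windows of the same length. The Lrrc8b window held 1 AP-1 match, 220 bases before the start, present in 6.75% of windows. Neither Lrrc8d window held any of the motifs. The NFAT5 core was in 18.6% of windows and the interferon factor site in 2.98%, and neither was in a window of the 8 genes searched. The promoter of Slc12a2 was not searched. GC content was 77.2%, 78.4% and 73.2% in the windows of Lrrc8b, Lrrc8c and Lrrc8d, against a median of 52.4%. A match is a stretch of letters and no measure of binding.

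Slc12a4, which encodes the potassium and chloride exporter KCC1, rose with LPS and was lower in LPS-treated KO cells than in WT cells. Unstimulated WT arrays read 8.93, 8.85, 8.94 and 8.96, and treated ones 10.38, 10.26, 10.27 and 10.20. KO arrays read 8.68, 8.90, 8.79 and 8.61 without LPS and 9.96, 9.86, 9.94 and 9.71 with it. Treated and untreated arrays did not overlap in either genotype, and the treated KO arrays all lay below the treated WT arrays. LPS raised it by 1.36 ± 0.0856, or 2.56-fold, in WT cells (limma adjusted p = 5.99e-10) and by 1.12 ± 0.0856, or 2.17-fold, in KO cells (adjusted p = 1.05e-08). The genes most like it over the 16 arrays were Ppp1r12a, Rab11fip1 and Rnf24 (r = 0.99 each).

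Slc12a2, which encodes the sodium, potassium and chloride importer NKCC1, was not called for LPS. It read 7.53, 8.08, 7.91 and 7.92 in unstimulated WT arrays and 7.56, 8.03, 8.03 and 7.45 with LPS, and in KO arrays 7.70, 7.93, 7.69 and 6.95 without and 8.12, 8.09, 7.89 and 7.32 with it. The groups overlapped in both genotypes, and both KO arrays numbered 4 were the lowest of their groups. The LPS difference was -0.09 ± 0.209 in WT cells (interval -0.53 to 0.35, limma adjusted p = 0.779) and 0.29 ± 0.209 in KO cells (adjusted p = 0.411). Of the 6 other cation-chloride cotransporter genes measured, 0 rose and 2 fell with LPS in WT cells: Slc12a7, which encodes the potassium and chloride exporter KCC4, by -0.61 (adjusted p = 0.000457), and the orphan family member Slc12a9 by -0.74 (adjusted p = 8.54e-06). In KO cells 0 of the 6 were called, with differences of 0.02 for Slc12a7 and -0.15 for Slc12a9. Slc12a7 was chosen after its values were seen. Over all genes 14% rose and 16.8% fell with LPS in WT cells, and 12% and 12.7% in KO cells.

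Wnk1, the kinase that responds to chloride and to crowding in the cell, fell with LPS in both genotypes. Unstimulated WT arrays read 11.77, 11.98, 11.83 and 11.86, and treated ones 11.28, 11.48, 11.44 and 11.44. In KO cells it read 11.84, 11.83, 12.01 and 11.85 without LPS and 11.51, 11.61, 11.44 and 11.36 with it. The groups did not overlap in either genotype. The fall was -0.45 ± 0.0843, or 1.36-fold, in WT cells (limma adjusted p = 0.000347) and -0.40 ± 0.0843, or 1.32-fold, in KO cells (adjusted p = 0.00129). The dimmer of the Wnk1 probe sets differed by -0.51 ± 0.23 (adjusted p = 0.111) and -0.86 ± 0.23 (adjusted p = 0.00881), so its direction was the same and the WT call was lost. In the arrays with Xist above Kdm5d the KO difference was -0.49 (adjusted p = 0.117). The genes most like Wnk1 over the arrays were Mtr, Chd9 and Tbc1d5 (r = 0.97 each).

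Of the 14 other genes of the WNK pathway that were measured, 4 rose and 2 fell with LPS in WT cells, and 3 rose and 2 fell in KO cells. Over all genes 14% rose and 16.8% fell in WT cells, and 12% and 12.7% in KO cells. Sgk3, a kinase related to the aldosterone-induced Sgk1, rose by 0.55 and 0.83 (limma adjusted p = 0.000382 and 5.71e-06). Nedd4l, a ubiquitin ligase that removes sodium channels from the membrane, fell by 1.41 in WT and 0.74 in KO cells (adjusted p = 1.79e-07 and 0.000437). The kinases that act between WNK1 and the carriers were looked up after their values were seen. Oxsr1 rose by 0.54 and 0.53 (adjusted p = 0.000647 and 0.00107), whereas Stk39, which encodes SPAK, rose by 0.43 in WT cells (adjusted p = 0.0267) and differed by 0.15 in KO cells (adjusted p = 0.565). The median over the 14 genes was 0.18 in WT and 0.08 in KO cells.

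Aqp1, which encodes a water channel abundant in red cells and endothelium, read 7.10, 7.0, 6.94 and 7.04 in unstimulated WT arrays and 7.30, 7.24, 7.38 and 7.08 with LPS. The groups overlapped at the lowest treated array. In KO cells the values were 6.98, 7.03, 7.03 and 7.07 without LPS and 6.99, 7.15, 7.27 and 7.22 with it. The difference was 0.23 ± 0.0854, or 1.17-fold, in WT cells (limma adjusted p = 0.0495), against 0.13 ± 0.0854 in KO cells (adjusted p = 0.342). The WT call held in 8 of 19 alternative settings, with adjusted p between 0.0179 and 0.16. With single WT arrays left out, it held only without LPS array 4 or unstimulated array 1. Among markers of cells that express this channel, 0 of 7 erythroid genes were called in any contrast, and their values ran from 3.94 to 7.59. Of 8 endothelial genes 2 rose in WT cells, Kdr by 2.68 and Pecam1 by 0.31, and 1 rose in KO cells, Kdr by 2.46. The other 6 were not called for LPS in WT cells. The mean of the 8 ran from 6.89 to 7.14 in unstimulated and from 7.32 to 7.34 in treated WT arrays. In KO arrays it ran from 7.07 to 7.23 without LPS and from 7.36 to 7.48 with it. The part of other cells in the Aqp1 values was not tested. The genes most like Aqp1 were Eva1b, Dusp5 and Tnfrsf9 (r = 0.86, 0.83 and 0.83).

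Of 10 other aquaporin genes measured, 2 rose with LPS in WT cells and 0 were called in KO cells. Over all genes 14% were called higher in WT and 12% in KO cells. Aqp9, a channel for water, glycerol and urea, rose by 1.68 ± 0.311 in WT cells (limma adjusted p = 0.000313), against 0.75 ± 0.311 in KO cells (adjusted p = 0.0969). Its response in KO minus WT was -0.93 ± 0.44 (adjusted p = 0.487), so a difference between the genotypes was not shown. Aqp8 rose by 0.28 in WT cells (adjusted p = 0.0473). Both were chosen after their values were seen.

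**Figure D2:**
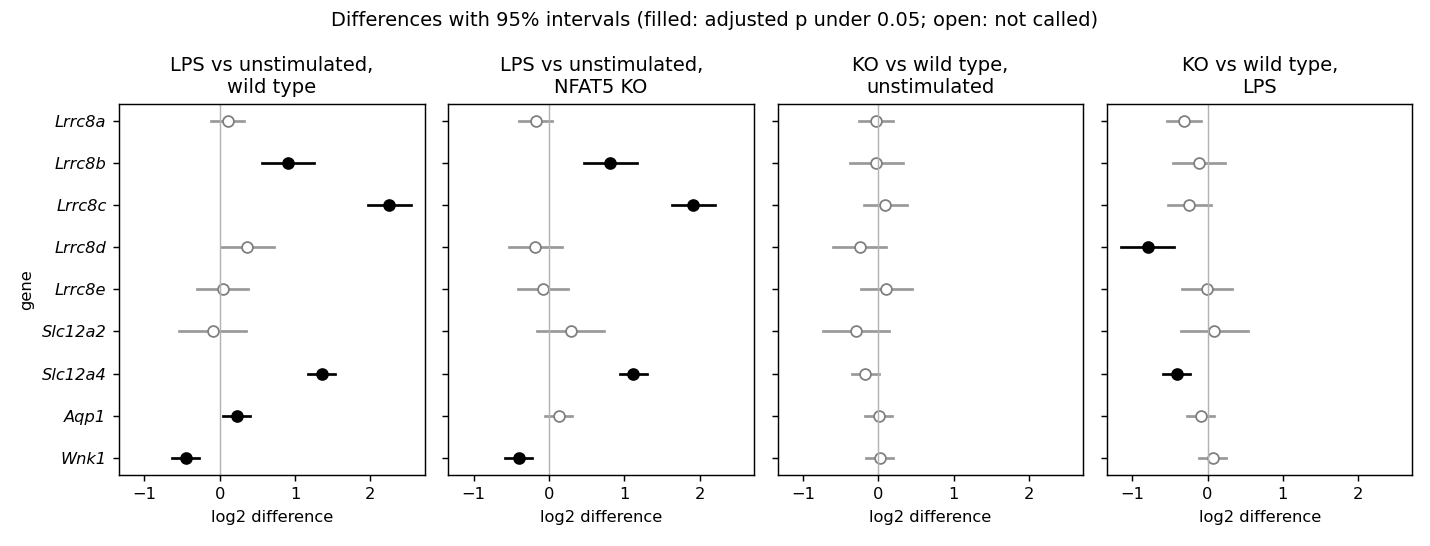
Log2 differences (x axis) with 95% intervals for each of the 9 genes (y axis) in the 4 contrasts, from limma over 19937 genes. Filled points have an adjusted p under 0.05 and open points do not: 5 of 9 are filled for LPS in WT cells, 4 for LPS in KO cells, 0 for genotype without LPS and 2 for genotype with LPS.

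Without LPS, 0 of the 9 genes were called between KO and WT cells, where 1% of all genes were, and 0 had an unadjusted p under 0.05 in limma. Their differences ran from -0.29 for Slc12a2 to 0.11 for Lrrc8e. The Slc12a2 difference rested on the arrays numbered 4: KO minus WT was -0.97 between these, and -0.07 on average without them. With a term for the split in sex-linked transcripts it was -0.87 and passed the test (adjusted p = 0.0252), and within the arrays with Xist above Kdm5d it was -0.91 (adjusted p = 0.18). For Slc12a4 the difference was -0.17 ± 0.0856 (adjusted p = 0.665), with KO below WT in 3 of the 4 numbers.

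With LPS, Lrrc8d and Slc12a4 were lower in KO than in WT cells. No member was higher, so 2 of 9 were called lower and 0 higher, where 1.26% of all genes were lower and 1.8% higher. Lrrc8d read 9.97, 9.81, 9.73 and 9.64 in treated WT arrays and 9.24, 9.35, 8.89 and 8.49 in treated KO arrays. All KO arrays lay below all WT arrays, and KO number 4 was the lowest. The difference was -0.80 ± 0.168, or 1.74-fold lower (limma adjusted p = 0.0116). The exact permutation p of 0.0286 is the smallest that 70 splits can give, and groups of this size without overlap always reach it. In the unstimulated arrays Lrrc8d read 9.19, 9.13, 9.64 and 9.72 in WT and 9.02, 9.33, 9.27 and 9.08 in KO cells, which overlap. That difference was -0.25 ± 0.168 (adjusted p = 0.804), and the LPS response in KO minus WT was -0.55 ± 0.237 (adjusted p = 0.414), so a change of the genotype difference with LPS was not shown.

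The Lrrc8d difference passed the test in all 19 alternative settings run for it, at -1.30 to -0.63 with adjusted p between 0.00412 and 0.0428. It was -1.30 within the arrays with Xist above Kdm5d (adjusted p = 0.034), -1.09 with the term for that split (adjusted p = 0.00735) and -0.68 without the arrays numbered 4 (adjusted p = 0.0267). The first of these values sets KO array 4, the lowest Lrrc8d value, against the WT arrays, and the second takes the sex-linked term from the same KO arrays numbered 4. In the third, every KO array has Xist below Kdm5d, so genotype and sex-linked transcripts cannot be told apart there. The genes most like Lrrc8d over the 16 arrays were Ampd2, Evi5 and Msl1 (r = 0.91, 0.89 and 0.88).

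The Slc12a4 difference with LPS was -0.41 ± 0.0856, or 1.33-fold lower in KO cells (limma adjusted p = 0.0107, exact permutation p = 0.0286). KO was below WT in each of the 4 numbers, by 0.33 to 0.49. The call held in 17 of 19 alternative settings. It was lost under the 1.5-fold condition and in the arrays with Xist above Kdm5d, with a difference of -0.57 (adjusted p = 0.0869). The LPS response in KO minus WT was -0.24 ± 0.121 (adjusted p = 0.541).

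Slc12a4 lies on chromosome 8, as does Nfat5, with 27 protein-coding genes between them in the RefSeq order. Of the 24 of these that were measured, 1 was higher (Pla2g15) and 1 lower (Dpep3) in LPS-treated KO cells, and 0 were called without LPS. Dpep3, the next gene to Slc12a4, was lower by 0.46 (limma adjusted p = 0.00914), and Lcat, its neighbour on the other side, by 0.39 (adjusted p = 0.0481). With LPS these neighbours rose in WT cells too, by 0.58 for Dpep3 and 0.90 for Lcat (adjusted p = 7.42e-05 and 1.61e-06). Their genotype differences were read only from the fit without a term for sex-linked transcripts. The promoter of Slc12a4 is shown because this gene was called in both the LPS and the genotype comparison. The window is chr8:105966116-105966365 on the minus strand, with capitals for its NFAT core, read on the minus strand of the printed sequence 220 bases before the start.
Slc12a4: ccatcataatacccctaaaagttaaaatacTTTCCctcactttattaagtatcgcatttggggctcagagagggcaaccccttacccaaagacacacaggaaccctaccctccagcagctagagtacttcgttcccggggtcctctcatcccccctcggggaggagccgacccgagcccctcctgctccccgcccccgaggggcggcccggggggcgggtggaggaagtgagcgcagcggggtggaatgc

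The NFAT core was in 55.6% of all windows, among them those of Slc12a4, Lrrc8a, Lrrc8e and Aqp1 here. GC content of the Slc12a4 window was 60.8%.

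Lrrc8a and Lrrc8c also lay lower in every treated KO array than in any treated WT array, without passing the limma test. With Lrrc8d and Slc12a4 this made 4 of 9 genes, and 3.59% of all genes were below in this way. For Lrrc8a and Lrrc8c too the exact permutation p was 0.0286, which follows from this separation. The 9 genes were chosen with earlier results of these data known, so their counts beside those of all genes are a description. Treated KO arrays read 9.31, 9.19, 9.11 and 9.23 for Lrrc8a. The difference was -0.31 ± 0.105 for Lrrc8a (interval -0.53 to -0.09, limma adjusted p = 0.149) and -0.24 ± 0.136 for Lrrc8c (interval -0.53 to 0.05, adjusted p = 0.608). Lrrc8b differed by -0.11, Aqp1 by -0.09, Wnk1 by 0.07, Slc12a2 by 0.09 and Lrrc8e by -0.01, with overlapping groups. Over the 9 genes the median was -0.11, beside -0.01 over all genes.

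**Figure D3:**
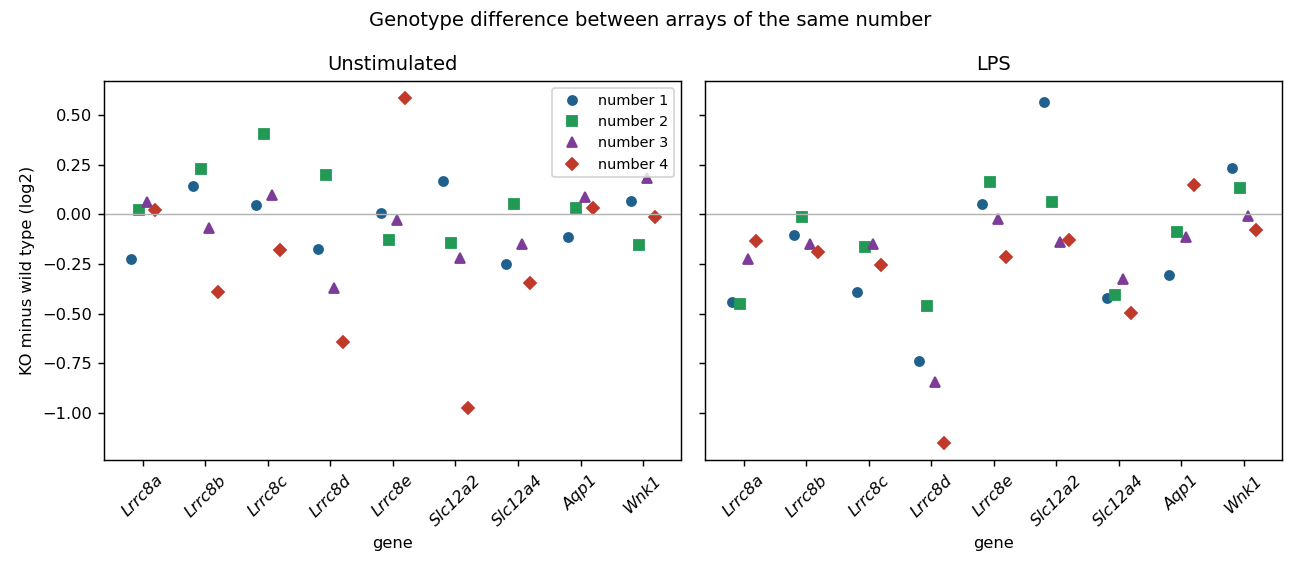
KO minus WT log2 level (y axis) between arrays of the same number (point shapes, numbers 1 to 4) for each of the 9 genes (x axis), without LPS on the left and with LPS on the right. With LPS, the points of Lrrc8d lie between -1.15 and -0.46 and those of Slc12a4 between -0.49 and -0.33, and without LPS the points of both genes lie on either side of 0.

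The test of the difference in LPS response between KO and WT called 0 of the 9 genes in limma (1.29% of all genes), with 1 of 9 at an unadjusted p under 0.05, Lrrc8d.

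The 9 genes were set beside 89 measured genes of ion and water transport, out of 96 listed, among which 15 rose and 20 fell with LPS in WT cells, and 13 rose and 15 fell in KO cells. As shares of the 89 these are near those over all genes, 14% and 16.8% in WT and 12% and 12.7% in KO cells, and so are no result about the lists. The same shares over all genes stand beside the LPS counts of the lists that follow. Other chloride channel genes moved both ways, with 1 of 17 higher and 5 lower in WT and 3 higher and 4 lower in KO cells. Clcn7, which exchanges chloride for protons in lysosomes, rose by 1.20 ± 0.109 and 1.54 ± 0.109 (limma adjusted p = 7.21e-08 and 4.05e-09). Ttyh3, of the tweety family of membrane proteins, fell by 1.21 and 0.78. Pacc1, the acid-activated chloride channel, fell by 1.41 and 0.90 and was higher in treated KO than in treated WT cells by 0.90 ± 0.13 (adjusted p = 0.000621). That made Pacc1 1 of 17 higher and 0 lower for genotype with LPS.

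Among 16 potassium and cation channel genes linked to volume, 5 rose and 4 fell with LPS in WT cells, and 4 rose and 4 fell in KO cells. Kcnk13, a potassium leak channel, read 9.18, 9.43, 9.57 and 9.62 in unstimulated and 7.43, 7.21, 7.51 and 7.59 in treated WT arrays. It fell by 2.02 ± 0.12 in WT and by 1.55 ± 0.12 in KO cells (limma adjusted p = 2.69e-10 and 1.14e-08), and with LPS it was 0.66 higher in KO cells (adjusted p = 0.0038). Kcnj2, an inward rectifier that sets the resting potential, fell by 2.18 in WT and 0.85 in KO cells (adjusted p = 3.74e-08 and 0.00199), and without LPS KO minus WT was -1.05 (adjusted p = 0.00698). The difference of the Kcnj2 responses was 1.33 ± 0.266 (adjusted p = 0.018). Treated arrays lay at 6.91 to 7.42 in WT and 7.07 to 7.68 in KO cells, which overlapped near the median of 7.11 over all genes. There KO minus WT was 0.28 (limma adjusted p = 0.74). The Kcnj2 difference without LPS is not given here with the sex-linked split or without the arrays numbered 4. Trpv2, a cation channel, fell by 1.30 and 0.71. Kcna3, a voltage-gated potassium channel chosen after its values were seen, rose by 2.12 and 1.48 (adjusted p = 1.83e-07 and 2e-05) and was lower in treated KO cells, by 0.88 (adjusted p = 0.0242). The genotype call held with the replicate number as a block (adjusted p = 0.000178) and with a term for the sex-linked split (-1.18, adjusted p = 0.018). That genotype call of Kcna3 was lost in the arrays with Xist above Kdm5d (-1.10, adjusted p = 0.137), without the arrays numbered 4 (adjusted p = 0.0569), in the 8 treated arrays alone (0.0666), and without WT LPS array 2 (0.0934), KO LPS array 3 (0.0915) or KO LPS array 4 (0.07).

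Of 15 sodium-proton and anion exchanger genes 2 rose and 5 fell with LPS in WT cells, and 2 rose and 4 fell in KO cells. Slc9a7, a sodium-proton exchanger of the Golgi, fell by 2.18 and 1.81 (limma adjusted p = 8.84e-09 and 1.32e-07), and Slc26a11, a sulphate and chloride carrier, by 1.69 and 2.14 (adjusted p = 3.66e-07 and 2.31e-08). Slc9a3r1, which encodes the scaffold NHERF1, fell by 0.28 and 0.94, and with LPS it was lower in KO cells by 0.48 (adjusted p = 0.00694). For the sodium pump, 1 of 11 genes rose and 2 fell in WT cells, and 1 rose and 1 fell in KO cells.

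Between genotypes, 0 of the 89 genes were higher and 2 lower in KO cells without LPS, and 4 were higher and 5 lower with LPS. Over all genes 1% were called without LPS, and 1.8% were higher and 1.26% lower with it. With the replicate number as a block the first count was 5 in place of 2. Fxyd2, a regulatory subunit of the sodium pump, was the lower gene besides Kcnj2. It read 11.21, 10.66, 10.94 and 10.98 in unstimulated WT arrays and 7.12, 7.19, 6.97 and 7.21 in KO arrays. With LPS the KO difference of Fxyd2 was -3.07 ± 0.152 (limma adjusted p = 2.34e-09), and LPS changed it by -0.63 in WT cells (adjusted p = 0.00322). Nedd4l was higher in treated KO cells by 0.62 (adjusted p = 0.0163) and Trpv2 by 0.46 (adjusted p = 0.0127). Without WT LPS array 2 these were 0.50 (adjusted p = 0.0764) and 0.36 (adjusted p = 0.0569), and 4 of the 89 genes were called in place of 9. Nedd4l also lost its call without KO LPS array 1 (adjusted p = 0.0508) or 2 (adjusted p = 0.0576). In the arrays with Xist above Kdm5d, Fxyd2 was the 1 gene of the 89 still called for genotype with LPS, and the adjusted p was 0.09 for Pacc1, 0.122 for Kcnk13, 0.248 for Trpv2, 0.283 for Nedd4l and 0.363 for Slc9a3r1. Trpv2 also lost its call in the fit of the 8 treated arrays alone (adjusted p = 0.0539) and without the arrays numbered 4 (adjusted p = 0.0524). With a term for the sex-linked split the adjusted p was 0.0575 for Trpv2, 0.0931 for Slc9a3r1 and 0.135 for Nedd4l.

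**Figure D4:**
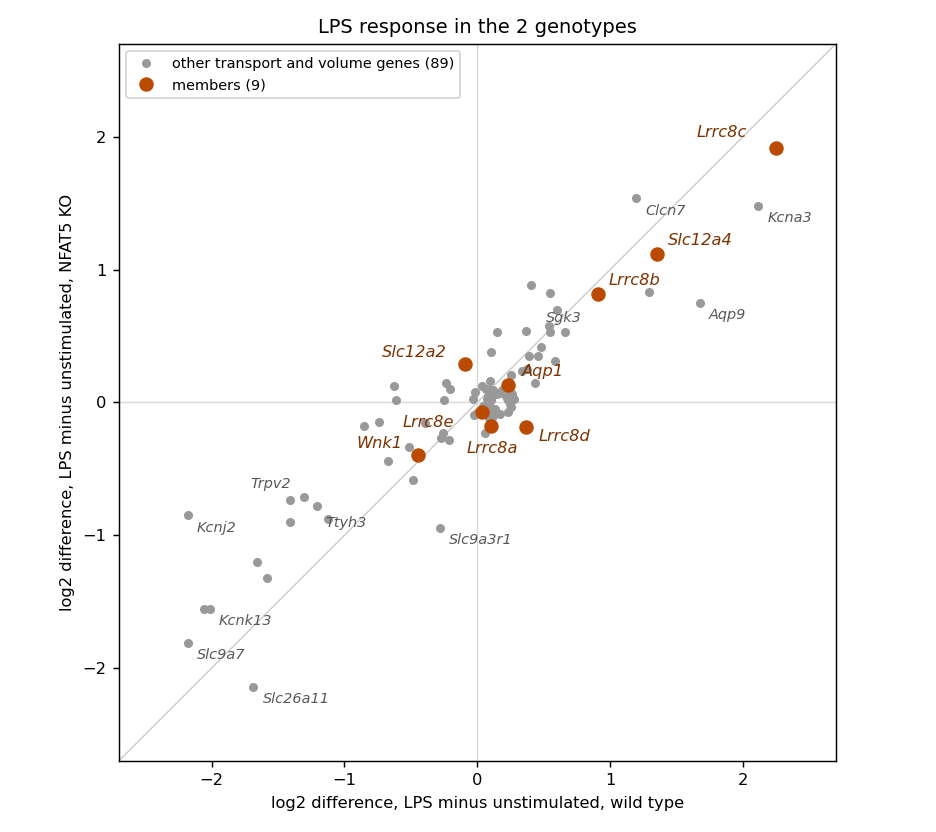
LPS minus unstimulated log2 difference in WT cells (x axis) and in NFAT5 KO cells (y axis) for the 9 genes (large points) and 89 other transport and volume genes (small points), with the diagonal of equal response. Lrrc8c lies at 2.25 and 1.92 and Slc12a4 at 1.36 and 1.12, whereas Lrrc8a and Lrrc8e lie near 0 in both.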

How the data were processed

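The authors deposited log2 expression values per probe set, made with RMA (background correction, normalization between arrays and a summary per probe set) per the submitters' processing notes; the RMA version, the genome build and the scanner files are not given or not used here. RMA compresses differences of dim probe sets, so folds are those of the array scale. Of 34760 probe sets 21640 had 1 gene symbol, 1321 several and 11799 were not listed; those with 1 symbol gave 19937 genes, of which 954 had several probe sets and were read by the brightest. Of the probe sets with 1 symbol, 21553 had a RefSeq entry for it and 87 had none, and 0 symbols were changed. One mean per group was fitted to all 16 arrays with limma 3.58.1 in R 4.3.3 (lmFit, eBayes, 12 residual degrees of freedom), with Benjamini-Hochberg adjustment over 19937 genes and a threshold of 0.05. Exact permutation tests were two-sided over 70 splits, which ignore the array numbers. Array medians lay between 6.76 and 6.86. No arrays of a group were near-identical: the SD of their difference over genes was 0.17 to 0.38.

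The members and the lists were chosen with earlier results of these data known. Named were all 9 members, Nfat5, per contrast up to 6 called genes of the 89 with the smallest p, and per called member the 3 genes with the highest r among genes at or above the median level (no predicted genes or small RNAs). Marker lists were counted too: for LPS in WT cells 1 of 8 macrophage, 1 of 9 neutrophil, 1 of 6 lymphocyte, 2 of 8 endothelial and 1 of 8 stromal markers rose and 3 macrophage markers fell, and in KO cells 3, 1, 0, 1 and 1 rose and 2 macrophage markers fell. Kdr (2.68 and 2.46) and Pdgfrb (3.88 and 3.16) were among those that rose. For genotype, 1 macrophage marker was lower without LPS, and with LPS 1 macrophage marker was higher and 1 stromal marker, Pdgfrb, lower by 0.90, beside 1 of 4 sex-linked genes called with LPS.

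Same-numbered arrays of KO and WT cells deviated together, so for genotype the number pairs the arrays by the data. Correlations of deviations from the group means were 0.16 to 0.44 without and 0.19 to 0.52 with LPS. Unless stated, the genotype p-values come from the fit without this pairing. With the number as a block, 71 genes were higher and 256 lower without LPS, in place of 28 and 172. With LPS these were 569 and 381, in place of 358 and 251. Alternatives covered the probe set summary, a filter on dim genes, normalization, the prior, the arrays in the fit, the replicate block, sex-linked transcripts, arrays numbered 4, each array left out and a 1.5-fold condition.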

Additional observations from a re-analysis of the deposited data

Results flagged for a closer look

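Of 92 sets of 4 arrays checked, 5 held an array far from the others of its group, and chance alone sets such an array apart in about 5% of sets. WT LPS array 2 read 11.85 for Lrrc8c, against 11.92 to 11.93 in the others. KO unstimulated array 1 read 9.39 for Lrrc8c, against 9.84 to 9.91. KO unstimulated array 3 read 12.01 for Wnk1, against 11.83 to 11.85. KO LPS array 3 read 7.82 for Kcnk13, against 8.16 to 8.23, and KO unstimulated array 2 read 9.78 for Clcn7, against 9.48 to 9.53.

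The LPS response differed between genotypes, by the limma test of the difference itself, in 4 of the 89 transport and volume genes, where 1.29% of all genes were called. KO minus WT was 1.33 for Kcnj2 (adjusted p = 0.018), 0.59 for Trpv2 (adjusted p = 0.0418) and -0.66 for Slc9a3r1 (adjusted p = 0.0197). For Slc12a9, the cotransporter family member, it was 0.59 (adjusted p = 0.0455). Kcnj2 levels already differed between the genotypes without LPS, by -1.05, and overlapped with LPS. Within the arrays with Xist above Kdm5d the adjusted p for Kcnj2, Trpv2, Slc9a3r1 and Slc12a9 was 0.334, 0.62, 0.606 and 0.555, with the same signs. Kcnj2 kept its call with any single array left out, and without all arrays numbered 4 its adjusted p was 0.0571. Slc9a3r1 lost its call without WT unstimulated array 2 (adjusted p = 0.0558), WT LPS array 2 (0.0543), KO LPS array 1 (0.0505) or KO LPS array 3 (0.0512). With single arrays left out, Trpv2 kept its call only without WT LPS array 1 or 3, and its adjusted p reached 0.0943. Slc12a9 kept its call only without WT unstimulated array 4, WT LPS array 1 or KO unstimulated array 2, and its adjusted p reached 0.108.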

How the results depend on the processing

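No called value of the 9 genes changed sign in any setting. With 1 array left out at a time, the count of the 9 genes called was 4 to 5 for LPS in WT cells, 4 to 4 in KO cells, 0 to 0 for genotype without LPS, 2 to 2 with LPS and 0 to 0 for the difference in response. For the 89 transport and volume genes these counts were 32 to 39, 27 to 30, 2 to 3, 4 to 10 and 1 to 5. With a 1.5-fold condition, 3 of the 9 genes were called for LPS in WT cells, without Wnk1 and Aqp1, and 1 for genotype with LPS, Lrrc8d. The latter also held for 1 gene, Lrrc8d, in the arrays with Xist above Kdm5d, and 2 were called for LPS in KO cells, Lrrc8c and Slc12a4. In those 10 arrays the counts over the 89 genes were 13 for LPS in KO cells, 1 for genotype with LPS and 0 for the difference in response; fewer arrays entered this fit. With a term for sex-linked transcripts, 156 of all genes were higher and 203 lower for genotype without LPS, and 337 and 334 with it. With that term 1 of the 9 genes was called for genotype without LPS (Slc12a2), and 5 of the 89 with LPS. The 1.5-fold condition and leaving out all arrays numbered 4 each also gave 5 for genotype with LPS, and the latter gave 1 for the difference in response. The cause of these changes in the counts was not tested. Lrrc8e has no value under the filter on dim genes.

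With the replicate number as a block, the Aqp1 call for LPS in WT cells was lost (adjusted p = 0.0548), 4 of the 9 genes remained called there, and the count over the 89 genes for genotype without LPS was 5 in place of 2. The block changed no other call of the 9 genes. For LPS the numbers pair the arrays only in part by the data (correlations 0.05 to 0.43 in WT and -0.06 to 0.56 in KO cells). Unstimulated WT array 1 correlated less with LPS array 1 (0.05) than with another LPS array (0.08). In KO cells this held for number 1 (-0.06 against 0.18) and number 3 (0.14 against 0.25). The remaining numbers correlated most with their own number. The limits are 4 arrays per group, the overlap of genotype with sex-linked transcripts in 6 of 8 KO arrays, and bulk RNA of unstated dose and time.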

Other observations

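Further transport genes not described above were chosen after their values were seen. Atp1b3, a beta subunit of the sodium pump, rose with LPS by 0.39 in WT and 0.35 in KO cells (limma adjusted p = 0.00109 and 0.00338) and was lower in treated KO than in treated WT cells by 0.36 (adjusted p = 0.0209). That genotype call of Atp1b3 was lost in the arrays with Xist above Kdm5d (adjusted p = 0.195), with a term for that split (0.0954), without the arrays numbered 4 (0.0709), and without WT LPS array 1 (0.0736) or 2 (0.0573) or KO LPS array 2 (0.0744) or 4 (0.0525). It was also lost under the 1.5-fold condition. The osmosensitive cation channel gene Trpv4 fell by 1.66 and 1.20 (adjusted p = 5.69e-07 and 3.46e-05). The calcium-activated channel gene Trpm4 rose by 1.29 and 0.83 (adjusted p = 4.12e-06 and 0.000639), and the mechanosensitive channel gene Piezo1 rose by 0.59 in WT cells (adjusted p = 0.00246) and differed by 0.31 in KO cells (adjusted p = 0.124). Tmem63a and Tmem63b, of a family of osmosensitive cation channels, rose by 0.66 and 0.60 in WT and by 0.53 and 0.70 in KO cells. With LPS, KO minus WT was -0.45 for Tmem63a (limma adjusted p = 0.026). That call was lost with a term for the sex-linked split (0.106), without the arrays numbered 4 (0.0664) and under the 1.5-fold condition. It was also lost without WT LPS array 1 (0.0954) or 2 (0.0636) or KO LPS array 1 (0.0871), 2 (0.0936) or 4 (0.0549).

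Ano6, a scramblase and chloride channel, fell with LPS by 1.13 in WT and 0.88 in KO cells (limma adjusted p = 4.29e-06 and 9.56e-05). Ttyh2 fell by 1.58 and 1.32 (adjusted p = 1.76e-06 and 1.95e-05). Slc9a9, an endosomal sodium-proton exchanger, fell by 2.06 and 1.55 (adjusted p = 1.4e-07 and 6.28e-06), whereas Slc4a2, a chloride and bicarbonate exchanger, rose by 0.54 and 0.57 (adjusted p = 0.000128 and 8.6e-05). Sgk1, a kinase induced by salt and hormones, fell by 0.85 in WT cells (adjusted p = 0.000962) and differed by -0.18 in KO cells (adjusted p = 0.586), and the difference of the responses was 0.67 (adjusted p = 0.293).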
